A study of Mus musculus with 3 samples.

Results

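Expression of 10 genes linked to the FOXO transcription factors and to growth arrest was examined in NIH3T3 cells carrying mtYAP or wild-type YAP. The genes were Foxo1, Foxo3, Ccng2, Btg1, Btg2, Tob1, Pik3ip1, Sesn3, Irs2 and Txnip, taken by name, and every probe set whose annotation names 1 of them alone was used. All 10 were found, among 18193 genes named in this way, and they were read by 23 of the 45037 probe sets of the array. NIH3T3 is an immortalized fibroblast line of NIH/Swiss mouse embryos, and all cells were kept in medium with 10% calf serum. There were 3 arrays, 1 for each condition. The YAP cells carried wild-type mouse Yap, and the mtYAP cells carried Yap with the serine at position 112, which the LATS kinases phosphorylate, replaced by alanine. Both transgenes were delivered by a retrovirus and the cells that survived puromycin were used, whereas the labels call the control untransduced. A virus with empty vector was made as well, but it is not stated to be in the control cells of the array. A free-text label of the control also refers to embryonic stem cells, and how dense the cultures were when RNA was taken was not stated there. The paper introduces the arrays as a way to explore how YAP and mtYAP promote growth under confluent conditions as well. It gives no density for the array samples themselves.

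FOXO factors are forkhead transcription factors that stand at the end of the insulin and PI3K-AKT pathway. When growth factors activate AKT, it phosphorylates FOXO proteins, which are then held in the cytoplasm, and when the pathway is quiet they enter the nucleus and turn on genes of cell cycle arrest, stress resistance, autophagy and nutrient sensing. The 10 genes comprise FOXO factors themselves, antiproliferative genes, and regulators of the PI3K-AKT pathway and of nutrient and redox state. Their link to FOXO is prior knowledge, and FOXO activity was not measured on these arrays. The study asked on other samples whether AKT and FOXO phosphorylation take part in the growth of these cells, and the arrays show how much RNA of the genes was present.

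The members divided into a group far below control in mtYAP and a group close to it. Pik3ip1, Sesn3, Ccng2 and Txnip lay below a log2 difference of −1, that is more than 2-fold lower, in mtYAP, and no member lay above 1. These 4 of 10 genes compare with 4.06% of all genes below −1 and 3.77% above 1, and with 8.22% below −1 among the 7129 genes that reached a level of 6 on at least 1 array. The members were chosen with earlier results of these data known, so these shares describe the set and do not test it. In YAP only Sesn3, 1 of 10, lay below −1 and none above 1, against 1.26% and 1.36% of all genes. The median difference of the members was −0.53 in mtYAP and −0.38 in YAP, beside 0.02 and −0.003 over all genes. Of the members, 8 lay below control in mtYAP, 8 in YAP and 6 in both. With 1 array per condition there is no spread between replicates to set a difference against, and both comparisons share the control array, so the counts describe these 3 arrays. A level under 6 was taken as close to background, where the size of a difference is uncertain, and 9 of the 10 genes reached 6 on at least 1 array.

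**Figure D1:**
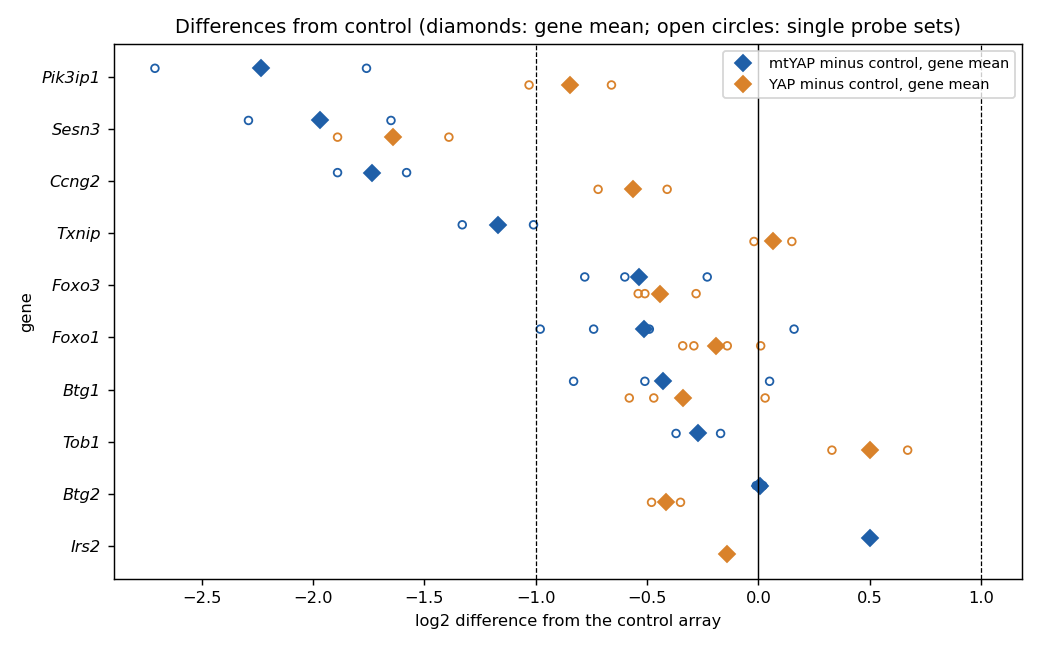
Log2 difference from the control array (horizontal axis) of each of the 10 genes (vertical axis), in mtYAP (blue) and YAP (orange). Diamonds are means over the probe sets of a gene, open circles single probe sets, and dashed lines mark a difference of −1 and 1. Pik3ip1, Sesn3, Ccng2 and Txnip lie left of −1 in mtYAP with every probe set, and Sesn3 alone does so in YAP.

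The arrays were alike in scale, with median levels of 4.56 to 4.60 and 33.0% to 34.0% of probe sets at 6 or more. Of 10 fibroblast markers, 9 reached a level of 6, with a median level of 10.56 in control, 10.04 in mtYAP and 10.53 in YAP. None of 18 markers of embryonic stem, epithelial, endothelial or blood cells reached 6 on any array, where they lay between 1.75 and 5.03. The stem cell factors Pou5f1 and Nanog stood at 2.96 and 2.25 in control. The stem cell marker Dppa4 stood at 3.56 in control, 5.03 in mtYAP and 4.49 in YAP, which are differences of 1.47 and 0.93 under a level of 6. Of the fibroblast markers, 4 lay below −1 in mtYAP (Pdgfra, Pdgfrb, Thy1 and S100a4) and 1 in YAP (Pdgfrb), so they moved in the same direction as the 4 members above. Their part in the members' differences was not tested. In bulk RNA, fewer cells with a transcript and less of it in each cell cannot be told apart.

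Of the FOXO factors, Foxo1 was read by 4 probe sets, of which only 2 reached a level of 6. The brighter of these stood at 7.13 in control, 6.64 in mtYAP and 6.99 in YAP. The other stood at 6.0, 5.02 and 5.71. Control was highest and mtYAP lowest in both, with differences of −0.49 and −0.98 in mtYAP and −0.14 and −0.29 in YAP. Another probe set, under 6 throughout, ran the same way at −0.74 and −0.34, and the last, near background at 3.18 to 3.34, did not. The mean over all 4 was −0.51 (1.43-fold lower) in mtYAP and −0.19 in YAP.

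Foxo3 encodes the factor whose phosphorylation is often used as a readout of AKT. Its probe sets above background stood at 8.31 and 7.53 in control, at 7.53 and 6.93 in mtYAP and at 7.77 and 7.02 in YAP. Both were highest in control, and mtYAP and YAP lay close to each other. The differences were −0.78 and −0.60 in mtYAP and −0.54 and −0.51 in YAP, and the gene mean, which includes another probe set near background, was −0.54 and −0.44. A probe set that names Foxo3 together with another gene was left out, and it read under 4 on all arrays. Among all genes, 10.8% lay lower than Foxo3 in mtYAP and 6.88% in YAP, and 11.3% and 23.2% lay lower than Foxo1. By these gene means, neither FOXO gene stood at the edge of the distribution. The means include probe sets near background. With only probe sets that reached 6, the mtYAP differences were −0.735 for Foxo1 and −0.69 for Foxo3.

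**Figure D2:**
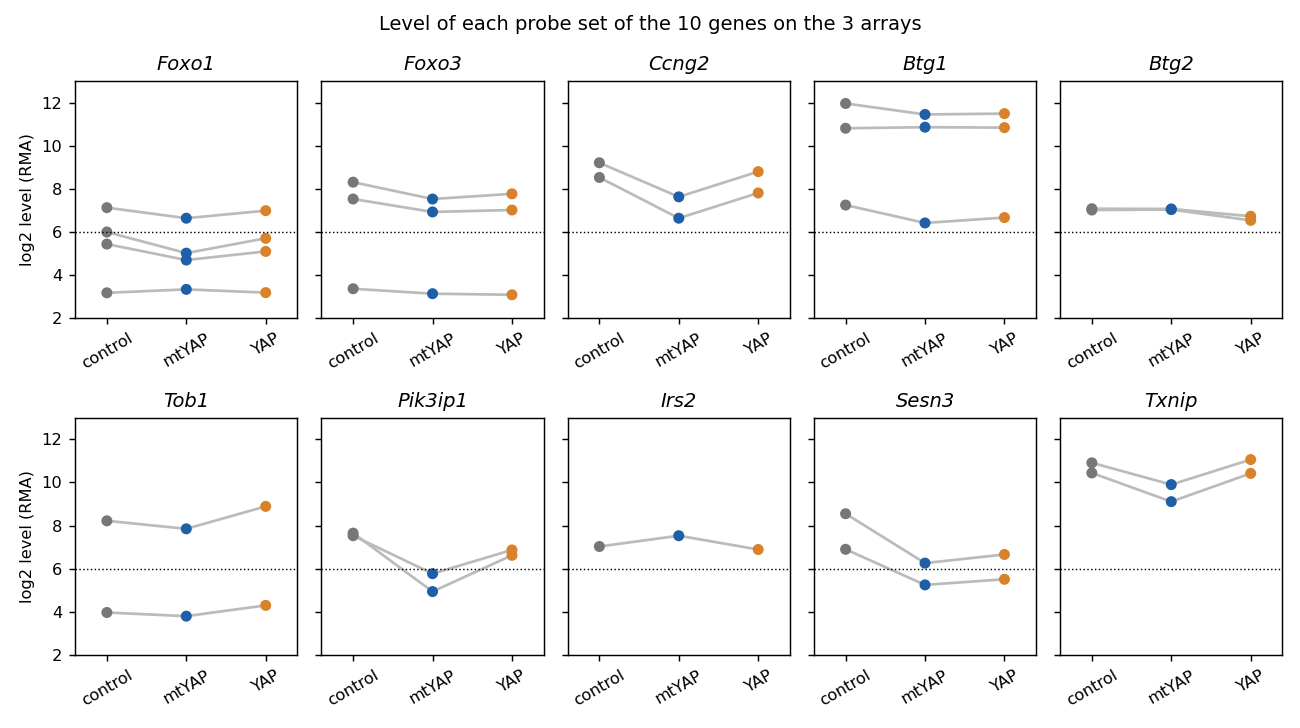
Log2 level (vertical axis) of each probe set of the 10 genes on the control (grey), mtYAP (blue) and YAP (orange) arrays, with 1 panel a gene and a line joining the values of 1 probe set. The dotted line marks a level of 6. Ccng2, Pik3ip1, Sesn3 and Txnip are lowest in mtYAP, and Txnip in YAP lies within 0.15 of control.

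The antiproliferative genes were Ccng2, Btg1, Btg2 and Tob1, and only Ccng2 lay far from control. Ccng2 encodes cyclin G2, an unconventional cyclin that is abundant in resting cells and slows the cell cycle. One of its probe sets stood at 9.21 in control, 7.63 in mtYAP and 8.80 in YAP. Its other probe set read 8.53, 6.64 and 7.81. Both put YAP between control and mtYAP, and by the same distance of 1.17 above mtYAP. The gene mean was −1.74 (3.33-fold lower) in mtYAP and −0.57 (1.48-fold lower) in YAP, and 212 of 18193 genes lay lower than it in mtYAP and 765 in YAP. Ccng1, which encodes the related cyclin G1, lay above control instead, at 0.44 and 0.59.

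Btg1, Btg2 and Tob1 belong to the BTG/TOB family, whose members curb proliferation and bring the CCR4-NOT deadenylase to mRNAs. Btg1 had 3 probe sets, all well above background, that differed among themselves. They stood at −0.51, 0.05 and −0.83 in mtYAP and at −0.47, 0.03 and −0.58 in YAP, and at 11.96, 10.81 and 7.25 in control. For each probe set, mtYAP and YAP thus lay on the same side of control. The gene mean was −0.43 and −0.34.

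Btg2, which is also an early response gene and a target of p53, stood at 7.08 and 7.02 in control, 7.07 and 7.04 in mtYAP and 6.73 and 6.54 in YAP. Here mtYAP equalled control to within 0.02, and YAP was the lower array in both probe sets, with a gene mean of −0.42 (1.33-fold lower). Tob1 ran the other way in YAP. Its probe set above background stood at 8.22 in control, 7.85 in mtYAP and 8.89 in YAP. The one near background read 3.97, 3.80 and 4.30. Both put YAP highest and mtYAP lowest, and the gene mean was −0.27 in mtYAP and 0.50 (1.41-fold higher) in YAP. Across these arrays the BTG and TOB genes therefore had no common direction, and none of these 3 genes passed a log2 difference of 1.

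Pik3ip1 and Irs2 act on the PI3K-AKT pathway from opposite sides. Pik3ip1 encodes a membrane protein that binds and inhibits PI3K. Its probe sets stood at 7.53 and 7.65 in control, at 5.77 and 4.94 in mtYAP and at 6.87 and 6.62 in YAP. Both were highest in control, lowest in mtYAP and between them in YAP. The differences were −1.76 and −2.71 in mtYAP and −0.66 and −1.03 in YAP, and the gene means were −2.24 (4.71-fold lower) and −0.85 (1.80-fold lower). Since both probe sets lay under 6 in mtYAP, the size of that difference is uncertain. The gene had the largest difference of the 10 in mtYAP, with 105 genes lower. The 3 genes of level 6 or more closest to it in both differences were Map2k6, a kinase upstream of p38, at −2.27 and −0.86, BC028528 at −2.28 and −0.77 and Itgbl1, an integrin-like secreted protein, at −2.33 and −0.81, each with 1 probe set. This likeness is a distance over 2 differences from 3 arrays, which share the control.

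Irs2 encodes an adaptor that carries the signal from the insulin and IGF1 receptors to PI3K. Its single probe set stood at 7.03 in control, 7.53 in mtYAP and 6.89 in YAP. It was the only member with a difference well above control in mtYAP, at 0.50 (1.41-fold higher), and it lay at −0.14 in YAP. Irs1, the related adaptor, stood at 10.56 in control, 7.90 in mtYAP and 9.01 in YAP, which are differences of −2.66 (6.32-fold lower) and −1.55 (2.93-fold lower), also read by 1 probe set. The differences of Irs1 and Irs2 in mtYAP thus had opposite signs.

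Sesn3 encodes sestrin 3, a stress-induced protein that restrains mTORC1. Its probe sets stood at 8.55 and 6.90 in control, at 6.26 and 5.25 in mtYAP and at 6.66 and 5.51 in YAP. Unlike Ccng2 and Pik3ip1, it was nearly as low in YAP as in mtYAP, by probe set differences of −2.29 and −1.65 in mtYAP and −1.89 and −1.39 in YAP. The gene means were −1.97 (3.92-fold lower) and −1.64 (3.12-fold lower). The dimmer probe set lay under 6 in both lines, so the size of these differences is uncertain too. In YAP only 65 of 18193 genes lay lower, and in mtYAP 153. The other sestrins did not share this pattern. Sesn1, also a target of p53 and FOXO, stood at −0.99 and −0.21 over 4 probe sets that ranged from −1.55 to 0.04 in mtYAP. Sesn2, which ATF4 induces, stood above control at 0.78 and 0.65.

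Txnip encodes the thioredoxin-interacting protein, an arrestin domain protein that binds thioredoxin and lowers glucose uptake. Its probe sets stood at 10.91 and 10.44 in control, at 9.90 and 9.11 in mtYAP and at 11.06 and 10.42 in YAP. Only mtYAP was low, and the YAP values lay within 0.15 of control. The gene mean was −1.17 (2.25-fold lower) in mtYAP, with 552 genes lower, and 0.07 in YAP. The arrestin domain gene Arrdc3 was likewise low in mtYAP alone, at 7.64 in control, 5.87 in mtYAP and 7.56 in YAP. Arrdc4, like Txnip a target of the glucose-sensing factor MondoA, had differences of −0.17 and 0.64, and its probe sets in mtYAP ran from −0.78 to 0.45.

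Promoters were searched for short motifs, since 4 of the genes lay low together in mtYAP. RefSeq windows of 300 bases from 250 before to 50 after a transcription start, in the GRCm38.p6 build, were matched by symbol for all 10 members, with 1 window each, and searched on both strands. The FOXO site GTAAACA occurred in 2 of the 10 windows, those of Btg1 and Txnip, and in 3.65% of all 32851 windows. The insulin response element CAAAACA occurred in those of Ccng2 and Irs2 and in 6.28% of all windows, and shares no match with the FOXO site. The E-box CACGTG, which MYC binds, was found for Irs2 (7.15% of all windows) and the TEAD site GGAATG for Foxo3 (14.7% of all windows). A carbohydrate response element, written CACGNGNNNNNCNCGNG, which would overlap any E-box inside it, was found for Txnip and in 0.37% of all windows. The bases before the start are shown for the 4 genes below −1 in mtYAP and for Btg1, which holds the FOXO site but lay close to control, with the matches to these motifs in capitals.
Txnip, chr3:96557707-96557956, plus strand: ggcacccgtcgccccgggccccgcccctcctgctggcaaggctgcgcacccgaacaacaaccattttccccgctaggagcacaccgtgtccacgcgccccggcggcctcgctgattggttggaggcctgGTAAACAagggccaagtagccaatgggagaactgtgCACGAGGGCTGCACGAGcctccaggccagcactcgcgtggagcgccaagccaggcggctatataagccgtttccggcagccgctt
Btg1, chr10:96616751-96617000, plus strand: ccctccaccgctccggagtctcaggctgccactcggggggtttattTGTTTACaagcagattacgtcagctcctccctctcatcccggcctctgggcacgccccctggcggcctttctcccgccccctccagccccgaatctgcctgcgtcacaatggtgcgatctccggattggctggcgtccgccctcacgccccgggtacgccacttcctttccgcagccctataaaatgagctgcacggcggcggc
Ccng2, chr5:93267323-93267572, plus strand: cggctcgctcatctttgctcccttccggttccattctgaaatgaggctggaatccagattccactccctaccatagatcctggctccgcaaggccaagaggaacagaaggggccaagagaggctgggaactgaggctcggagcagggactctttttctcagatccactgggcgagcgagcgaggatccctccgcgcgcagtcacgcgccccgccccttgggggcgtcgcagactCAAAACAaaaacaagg
Pik3ip1, chr11:3330481-3330730, plus strand: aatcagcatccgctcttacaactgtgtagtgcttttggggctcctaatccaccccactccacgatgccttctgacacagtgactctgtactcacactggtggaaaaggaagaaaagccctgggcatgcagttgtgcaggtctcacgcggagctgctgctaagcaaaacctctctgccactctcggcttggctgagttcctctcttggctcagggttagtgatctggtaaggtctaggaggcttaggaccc
Sesn3, chr9:14276051-14276300, plus strand: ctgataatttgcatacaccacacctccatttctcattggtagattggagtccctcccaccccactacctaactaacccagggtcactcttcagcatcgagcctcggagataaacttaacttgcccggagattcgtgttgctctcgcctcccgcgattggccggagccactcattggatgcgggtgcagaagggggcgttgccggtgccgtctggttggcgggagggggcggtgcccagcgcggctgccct
In Txnip the FOXO site begins 121 bases before the start and the carbohydrate response element 85 bases before it. In Btg1 the FOXO site, on the reverse strand, begins 204 bases before the start, and in Ccng2 the insulin response element begins 16 bases before it. None of these motifs occurred in the windows of Pik3ip1 and Sesn3, the members with the largest differences in mtYAP. The windows of Pik3ip1 and Tob1 lay inside the RefSeq spans of these genes, which begin further upstream, at chr11:3319241 and chr11:94209842. The bases around those positions were not searched. A match is a run of letters and not a bound site, and these windows leave out any site further away.

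**Figure D3:**
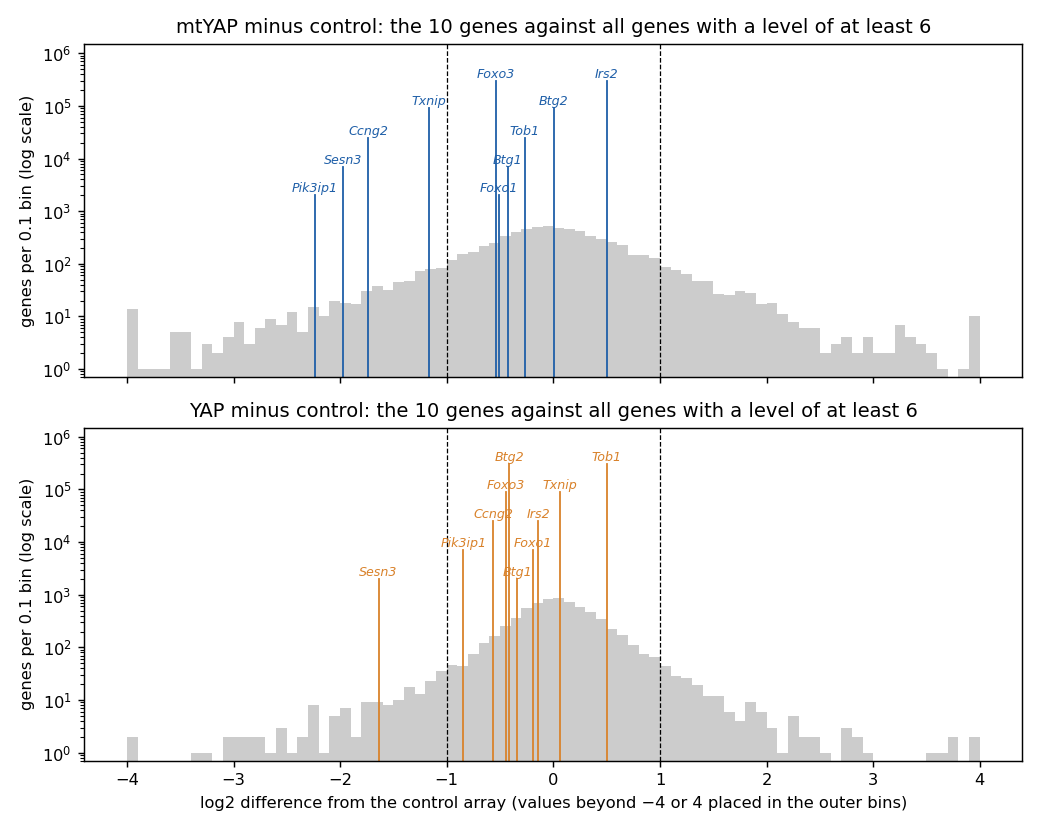
Number of genes (vertical axis, log scale) by log2 difference from the control array (horizontal axis, bins of 0.1) for the 7129 genes with a level of at least 6, in mtYAP (upper panel) and YAP (lower panel). Coloured lines mark the 10 genes, their heights only separate the names, and dashed lines mark −1 and 1. The distribution is wider in mtYAP, where Pik3ip1, Sesn3 and Ccng2 lie in its lower tail, and Sesn3 and Pik3ip1 do so in YAP.

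Set against the wider spread of mtYAP, the members kept apart to different degrees. Among genes of level 6 or more, the distribution without the outer 5% on each side ran from −1.31 to 1.25 in mtYAP and from −0.68 to 0.78 in YAP. Pik3ip1, Sesn3 and Ccng2 lay outside this range in mtYAP, and Sesn3 and Pik3ip1 in YAP. Txnip, at −1.17, was inside it in mtYAP. Of all 23 probe sets of the members, 19 (82.6%) lay below control in mtYAP and 18 (78.3%) in YAP. Over all 34945 probe sets with 1 gene, 46.7% lay below control in mtYAP and 49.0% in YAP.

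The direct comparison of mtYAP with YAP leaves out the control array. Pik3ip1 was 1.39 lower in mtYAP than in YAP on the log2 scale, Txnip 1.24 lower and Ccng2 1.17 lower, so 3 of 10 members lay below −1 and none above 1. Over all genes 1.42% lay below −1 and 0.748% above 1. Sesn3 (0.33 lower), Foxo1 (0.32 lower), Foxo3 and Btg1 (each 0.09 lower) differed little between the lines. Btg2 and Irs2 were the members higher in mtYAP than in YAP, by 0.42 and 0.64. Whether a difference between these lines exceeds their spread could not be tested.

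Around the members, the genes of the insulin and PI3K-AKT pathway were mostly near control. Of 34 measured, 4 lay below −1 and 1 above 1 in mtYAP, and 2 below −1 in YAP, with medians of −0.10 and −0.14. Over all genes, 4.06% lay below −1 and 3.77% above 1 in mtYAP, and 1.26% below −1 in YAP. Besides Irs1 and Pik3ip1, the pathway genes below −1 were Pik3r3 and Pik3r1, which encode regulatory subunits of PI3K. Pik3r3, p55 gamma, had differences of −3.32 (9.99-fold lower) and −2.02 by 1 probe set, which read under 6 in both lines, so their size is uncertain. Pik3r1, p85 alpha, stood at −1.80 and −0.65 over 4 probe sets that all lay below −1 in mtYAP, and Pik3r2, p85 beta, at −0.52 and 0.17. The catalytic subunit Pik3cb was the gene above 1, at 1.40 and 0.63. The kinases Akt1 and Akt2 stood at 0.22 and 0.07 in mtYAP. Of 24 FOXO factors and regulators, only Kat2b, an acetyltransferase, passed the limit, at −1.32 and −0.63, and the list had medians of −0.06 and 0.01. Foxo4 stood at 0.06 and 0.07, below a level of 6. Prmt1, a methyltransferase of FOXO1, stood at 0.89 and 0.59 and Ywhae, a 14-3-3 protein that retains FOXO in the cytoplasm, at 0.77 and 0.54.

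Other genes that FOXO factors are known to regulate went both ways. The list of growth arrest and death had 25 measured genes, 5 of them members. In mtYAP 3 lay above 1 and 4 below −1, and in YAP 3 lay above 1, with medians of 0.15 and 0.19. Without the members, 3 of 20 lay above 1 and 2 below −1 in mtYAP, and 3 above 1 in YAP. The medians were then 0.23 and 0.26. Over all genes, 3.77% lay above 1 and 4.06% below −1 in mtYAP, and 1.36% above 1 in YAP. The list also holds the cyclins Ccnd1 and Ccnd2 (0.83 and 0.56) and the kinase Plk4, so its counts and medians do not describe arrest genes alone. Gadd45a, a stress gene of growth arrest, stood furthest from control, at 3.58 and 2.30. Bcl2l11, which encodes the death protein BIM, stood at −1.82 and −0.51, although its 5 probe sets ranged from −2.56 to −0.31 in mtYAP. Plk4, a kinase of centriole duplication, stood at 1.79 and 1.003. The third gene above 1 in YAP was the CDK inhibitor Cdkn1a, p21, at 0.82 and 1.03. Of 2 further genes named after their values were seen, Ccnd1, cyclin D1, which FOXO represses, stood at 1.09 and 0.41, and Rbl2, the pocket protein p130, at −1.02 and −0.34. The CDK inhibitor Cdkn1b, a well-known FOXO target, lay near control at −0.23 and 0.29.

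Genes of metabolism, stress and autophagy lay lower. Of 32 measured, which include 3 of the members, 8 lay below −1 and 1 above 1 in mtYAP, and 6 below −1 in YAP, with medians of −0.36 and −0.26. Without the members, 6 of 29 lay below −1 in mtYAP and 5 in YAP. The share of all genes below −1 was 4.06% in mtYAP and 1.26% in YAP, and 8.22% and 2.3% among genes that reached 6. Among the 5 in YAP was Trim63, at −0.83 in mtYAP and −1.32 in YAP, which read 1.83 to 3.15 on the 3 arrays, near background. Ppargc1a, the coactivator PGC-1 alpha of mitochondrial biogenesis, stood at −2.26 (4.79-fold lower) in mtYAP and −2.44 (5.43-fold lower) in YAP, with all 5 probe sets at −1.98 or lower in both. The next genes were named after their values were seen. Pink1, a kinase of mitophagy, stood at −1.96 and −0.68, Klhl24 at −1.72 and −0.99, Fbxo32, the ubiquitin ligase atrogin-1, at −1.68 and −1.02, Atg12, a conjugation factor of autophagy, at −1.407 and −1.003 and Pdk4, which switches off pyruvate dehydrogenase, at −1.05 and −1.04. The mean level of Fbxo32 was under 6 in both lines and that of Atg12 in mtYAP, so the size of those differences is uncertain. Probe sets of Atg12 ranged from −1.93 to −0.50 in mtYAP and from −1.39 to −0.25 in YAP. Those of Fbxo32 ranged from −1.56 to −0.75 in YAP. The gene above 1 in mtYAP was Eif4ebp1, an inhibitor of translation initiation, at 1.56 and 0.86. The antioxidant enzymes Sod2 (0.25 and 0.09) and Prdx3 (0.32 and 0.34) stayed close to control.

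**Figure D4:**
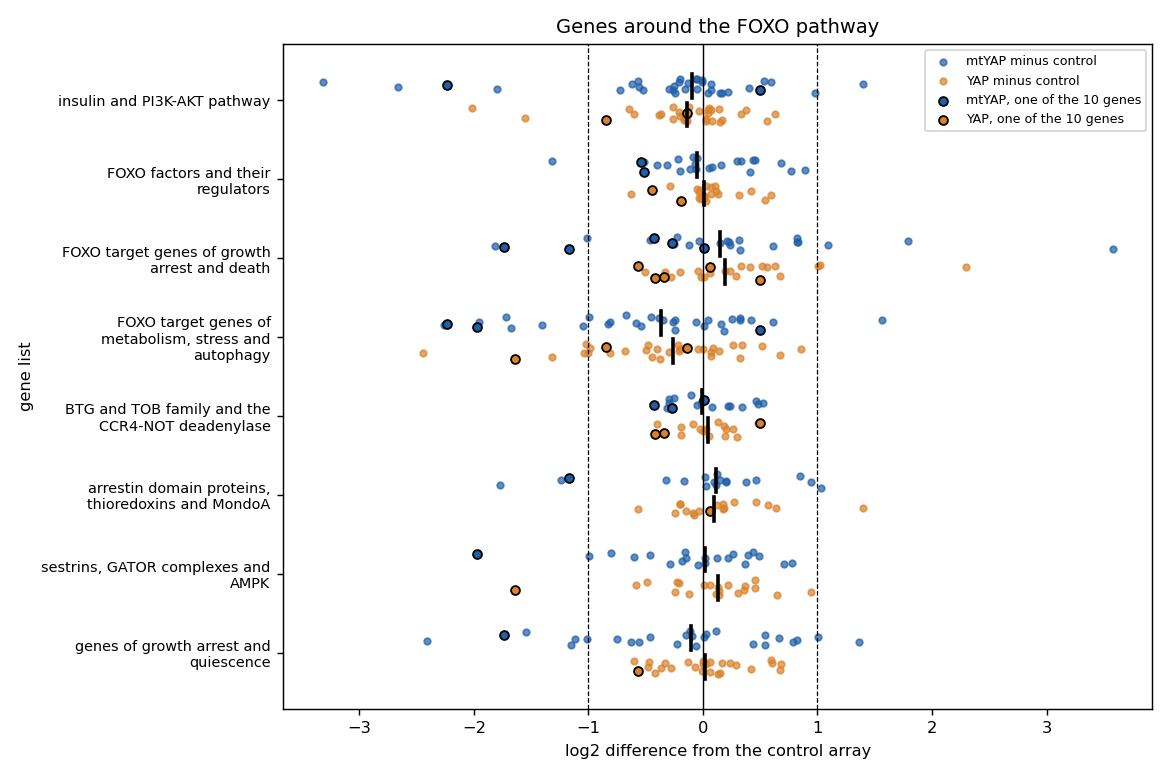
Log2 difference from the control array (horizontal axis) of the genes measured from 8 lists around the FOXO pathway (vertical axis), in mtYAP (blue) and YAP (orange). Outlined points are the 10 genes, black bars are list medians, dashed lines mark −1 and 1, and the vertical scatter within a list has no meaning. The list of metabolism, stress and autophagy genes has the lowest medians, −0.36 in mtYAP and −0.26 in YAP.

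The families of the members differed in how many genes passed the limit. Over all genes, 4.06% lay below −1 and 3.77% above 1 in mtYAP, and 1.26% and 1.36% in YAP. Of 18 BTG and TOB family and CCR4-NOT genes measured, none passed in either line, with medians of −0.01 and 0.04. The deadenylase subunits Cnot7, Cnot9 and Cnot6l were furthest from control, at 0.52, 0.48 and 0.47 in mtYAP. Of 18 arrestin domain, thioredoxin and MondoA genes, 3 lay below −1 and 1 above 1 in mtYAP, and 1 above 1 in YAP. Besides Txnip they were Arrdc3 (−1.77 and −0.08) and Arrdc2, under a level of 6 (−1.24 and −0.57), below, and Txnrd3, a thioredoxin reductase (1.03 and 0.57), and Ddit4, the mTORC1 inhibitor REDD1 (0.94 and 1.40), above. Of 21 sestrin, GATOR and AMPK genes, Sesn3 alone passed, in both lines, and Sesn1 fell just short in mtYAP, at −0.99. Of 26 genes of growth arrest and quiescence, 6 lay below −1 and 2 above 1 in mtYAP and none in YAP, with medians of −0.11 and 0.02. Without the member Ccng2, 5 of 25 lay below −1 in mtYAP. The genes above 1 were Lin9, under a level of 6 (1.36 and 0.68), and Gas2l3 (1.003 and 0.60). Pdgfra, a PDGF receptor that is abundant in resting fibroblasts, stood at −2.41 and −0.36 and Gas1, a growth arrest-specific membrane protein, at −1.15 and −0.48.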

How the data were processed

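RNA of 1 culture per condition had been hybridized as biotin-labelled cRNA to Affymetrix mouse genome arrays. The deposited values are log2 levels per probe set, which the authors background-subtracted and normalized by robust multiarray analysis (with affy in R per the processing notes, versions not given in the sources used here), with 2 decimals. Samples were grouped by their genotype label. Probe sets naming 1 gene in the platform annotation (34945 of 45037) were averaged per gene, and control was subtracted. A gene was counted past a log2 difference of −1 or 1, that is 2-fold (the study used a lower limit for its set of genes raised in YAP). Nothing was tested, with 1 array per condition, and the number of arrays limits the precision. Members, lists and limits were chosen with earlier results of these data known. Named are all members, up to 3 genes per list with the largest mtYAP difference at a level of 6 or more, all past the limit where 5 or fewer, the 3 genes nearest the most changed member, and family members for context, chosen after their values were seen. Promoters and their coordinates are RefSeq's for GRCm38.p6. Alternatives were other ways of joining and filtering probe sets, scalings and limits. Counting was run on simulated data with planted differences past the limit and little noise, which checks the code and not the calls made here. Python 3.11.15, numpy 2.4.6, pandas 2.3.3, statsmodels 0.14.6 and matplotlib 3.10.9 were used.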

Additional observations from a re-analysis of the deposited data

Results flagged for a closer look

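The mean differences of 4 members from control had opposite signs in mtYAP and YAP, and whether the lines differ was not tested. Txnip was 1.24 lower in mtYAP than in YAP (a difference of −1.235, from −1.17 and 0.07, where the YAP probe sets straddle control) and Tob1 0.77 lower (−0.77, from −0.27 and 0.50). Irs2 was 0.64 higher in mtYAP than in YAP and Btg2 0.42 higher, the latter with mtYAP at control.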

How the results depend on the processing

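With 1 array per condition no array could be left out within a group. The number of members below the limit in mtYAP was 4 under all 8 alternatives that keep control as the reference: the brightest probe set alone, no _s, _x or _a probe sets, probe sets of several genes kept, only probe sets reaching 6, the median or a loess (span 0.3) of the difference removed, a limit of 0.65, and any probe set passing. Some of these could not lower the count. A limit of 0.65 and any probe set passing could only keep or raise it. Keeping probe sets of several genes changed Foxo3 alone among the members, and the median removed in mtYAP was only 0.02. The count was 3 with the YAP array in place of control, an alternative added after seeing the data. Txnip lay close to the limit in mtYAP, at −1.01 with the brightest probe set alone. The share of all genes below −1 in mtYAP was then 5.16%, and it was 8.84% with only probe sets reaching 6. With the limit of 0.65, 8.34% of all genes passed in mtYAP. The number below the limit in YAP was 1, but 2 with a limit of 0.65 (1.57-fold), where 3.11% of all genes pass, and 2 when any probe set could pass, as Pik3ip1 then joined Sesn3. No member lay above the limit under these alternatives. The median of the members ranged from −0.712 to −0.471 in mtYAP and from −0.405 to −0.326 in YAP. Of 120 values of single members, 116 moved by at most 0.25 and none past −1 or 1 changed sign. Those that moved more were Btg1 (−0.83 without _s, _x or _a probe sets), Pik3ip1 (−1.76 with the brightest probe set alone or without those kinds) and Sesn3 (−2.29 with the brightest), all in mtYAP. Signals near background limit Foxo1, the mtYAP level of Pik3ip1 and the levels of Sesn3 in both lines.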
